A study of Macaca mulatta with 38 samples.

Results

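Lentiviral barcodes were counted in DNA of T cells from the blood of 1 rhesus macaque, ZL34, and the libraries taken late after transplant were set against the early ones. Chosen by cell type and day in the labels, 8 of the 38 libraries of the series are described. The 4 late libraries are T of days 393, 494, 536 and 553, day 365 is shown as a midpoint, and the 3 early libraries are T of days 119, 187 and 266. All come from the same animal, a male of 4 years whose CD34+ cells, mobilised with G-CSF and AMD1300 per the labels, were transduced with the library (MOI 25) before reinfusion following TBI. It also received cidofovir at 5 mg/kg every week, so both late and early T cells share the transplant and the drug. A T library of day 32 exists and entered no comparison. Each day has 1 library, so the spreads below are over days of 1 animal and not over animals, and whether they reflect sampling or biology cannot be told apart.

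A barcode is a DNA tag that the vector inserts into the genome of a stem or progenitor cell and that all its descendants inherit, so the read share of a barcode tracks the share of that clone among barcoded cells. T cells arise from marrow progenitors that mature in the thymus, and mature T cells can live long and divide in the periphery. Granulocytes and monocytes are short-lived and have to be replaced from the marrow. A clone can therefore remain among T cells after its myeloid output has ended. The table holds no cell surface marker or transcript, so the labelled cell type could not be checked against markers, and the purity of the T cells was not tested.

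Reads of listed barcodes per T library ran from 766039 at day 494 to 3464834 at day 553. The lowest count above 0 in the table is 101, and a 0 was therefore read as up to 100 reads. That is up to 0.0131% of reads at day 494 and at most 0.00458% in each of the other 7 libraries. A barcode was called present at 0.02% of reads or more, a level above that limit in all 8. Exact 95% Clopper-Pearson intervals of single barcode shares were no wider than ±0.0518 percentage points, and they cover only the error of counting, because amplified reads that lack molecular identifiers do not count molecules. Barcodes are numbered by their mean share over the whole series (bc1 has the highest). Groups 1 to 8 hold barcodes that covaried over all 38 libraries, these 8 included, so members of a group do not count as separate clones. The summed share of a group also depends on how many barcodes it holds.

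The sequences on which the comparison turned are those of group 4 (with higher shares in late T), of 3 barcodes near or below detection in early T, of group 2 (abundant throughout) and of 3 barcodes that dropped below 0.02% in late T. The variable part is in capitals, read 5′ to 3′, and the lower-case start is common to nearly all barcodes of the library.
bc13: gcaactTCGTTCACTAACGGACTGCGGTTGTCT
bc15: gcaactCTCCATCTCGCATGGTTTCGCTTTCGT
bc18: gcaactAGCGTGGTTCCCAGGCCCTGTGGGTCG
bc19: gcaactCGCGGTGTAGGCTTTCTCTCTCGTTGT
bc21: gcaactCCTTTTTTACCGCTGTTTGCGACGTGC
bc23: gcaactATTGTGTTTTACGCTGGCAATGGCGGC
bc28: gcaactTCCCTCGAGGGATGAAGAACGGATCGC
bc90: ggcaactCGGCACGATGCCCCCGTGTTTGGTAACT
bc96: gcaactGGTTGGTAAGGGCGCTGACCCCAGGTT
bc100: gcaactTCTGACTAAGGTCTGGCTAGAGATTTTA
bc7: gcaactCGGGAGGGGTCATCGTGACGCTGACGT
bc8: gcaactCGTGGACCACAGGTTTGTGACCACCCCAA
bc9: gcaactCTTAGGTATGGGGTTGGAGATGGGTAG
bc10: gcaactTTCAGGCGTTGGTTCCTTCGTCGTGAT
bc71: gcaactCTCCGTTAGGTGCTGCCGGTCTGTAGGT
bc72: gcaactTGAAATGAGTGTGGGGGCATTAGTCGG
bc75: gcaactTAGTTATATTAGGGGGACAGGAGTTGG
No 2 of the 44423 sequences of the table, adapter included, were 1 mismatch or a shift by 1 base apart. The variable part had a median GC content of 51.9% in persistent, in lost and in gained barcodes alike (classes defined below), against 53.6% over the table.

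Which barcodes gained or lost share between the early and the late T libraries was asked first. A barcode was tested where 2 or more of the 7 libraries held it at 0.05% of reads or above. Of the 185 tested, edgeR's quasi-likelihood test called 1 higher in late T (0.541% of those tested) and 0 lower (0%) at an adjusted p under 0.05. At an unadjusted p under 0.05 it found 8 higher and 11 lower. DESeq2 on the same barcodes, with its own size factors in place of column sums, called 12 higher and 26 lower. The mean share was higher in late T for 96 barcodes and lower for 89. In 26 barcodes all 4 late libraries lay above all 3 early ones (14.1%), and in 18 they lay below them (9.73%). A barcode could meet the filter through the 4 late or the 3 early libraries alone. Both counts therefore include barcodes that entered only where they are high (bc128 in late T, bc209 in early T), and the 2 are not comparable. These p-values take serial days of 1 animal as independent samples, which they are not.

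**Figure D1:**
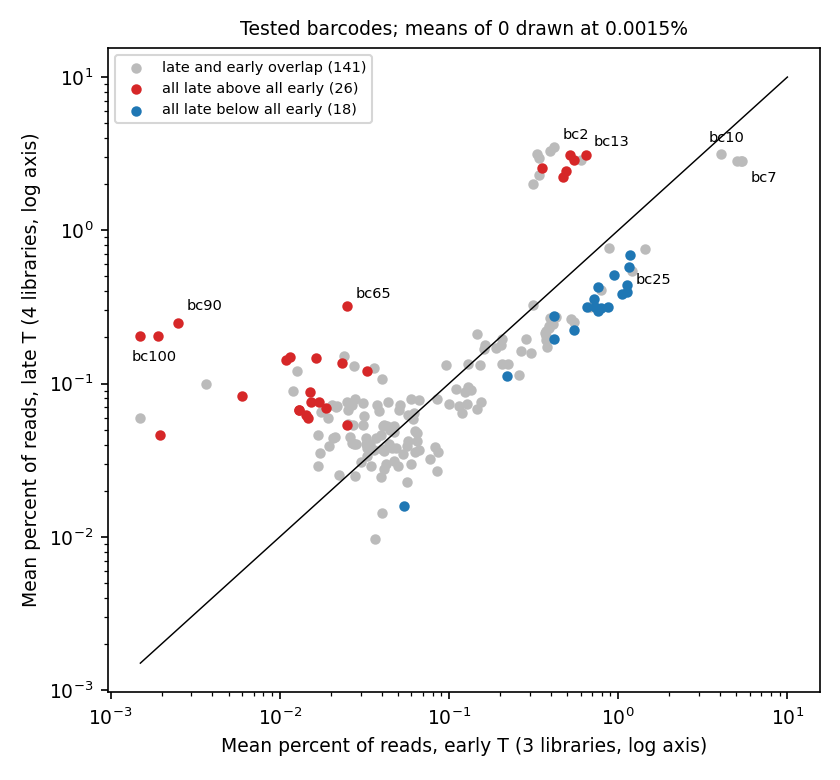
Mean percent of reads of each of the 185 tested barcodes in late T (y axis, 4 libraries) against early T (x axis, 3 libraries), both on log axes. Red points are the 26 barcodes with all late libraries above all early ones, blue points the 18 with all late libraries below, and grey points the 141 that overlap; the line marks equal means, and means of 0 are drawn at 0.0015%.

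The barcode that passed, bc100, was listed at 0 in all 3 early T libraries. In late T it held 0.160%, 0.317%, 0.295% and 0.0440% (days in ascending order here and below), so every late library was above every early one. At day 365 it already held 0.0733%. Its mean was 0.204% ± 0.127 in late T (SD, n = 4) and 0 in early T (n = 3), at least 63.4-fold higher in late T with each 0 at 100 reads (edgeR adjusted p = 0.0121). It reached the 0.05% of the filter in late T alone, so it entered the test through the libraries where it is high. Without day 393 or day 536 the adjusted p by edgeR was 0.0716 and 0.0626, and with day 365 counted as early it was 0.584. Outside T, bc100 was listed at 0 in all 7 Gr libraries, and in Mono it was listed at day 32 alone, at 0.00744%. In B it was listed at day 553 at 0.00826% and at day 266 at 0.00682%.

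Of the other barcodes near detection in early T, bc90 and bc96 had much the same course and did not pass (edgeR adjusted p = 0.363 for each). In late T bc90 held 0.196%, 0.413%, 0.270% and 0.118%, against 0, 0 and 0.00750% in early T. With each 0 at 100 reads its late mean was at least 53.3 times the early one. In late T bc96 held 0.151%, 0.314%, 0.274% and 0.0845%, against 0, 0 and 0.00569% in early T, a ratio of at least 50.6. The midpoint separated them, since bc96 was at 0.121% at day 365 and bc90 at 0.0109%. Both passed without day 266 (adjusted p = 0.00323 each, edgeR), when all remaining early values were 0. bc65, named after its values were seen, was listed throughout and held 0.122%, 0.462%, 0.516% and 0.177% in late T, against 0.0131%, 0.0145% and 0.0473% in early T. Its log2 change was 3.68 ± 0.82 (SE, edgeR adjusted p = 0.201, unadjusted p = 0.00217). bc234 overlapped, at 0.110%, 0.157%, 0.127% and 0.00618% in late T and 0, 0 and 0.0110% in early T (edgeR adjusted p = 0.390). bc149 and bc457 were lower still, with late means of 0.0826% and 0.0673%, against early means of 0.00595% and 0.0129%. None of the barcodes of this paragraph reached 0.05% in an early T library, so like bc100 they entered the test through late T.

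**Figure D2:**
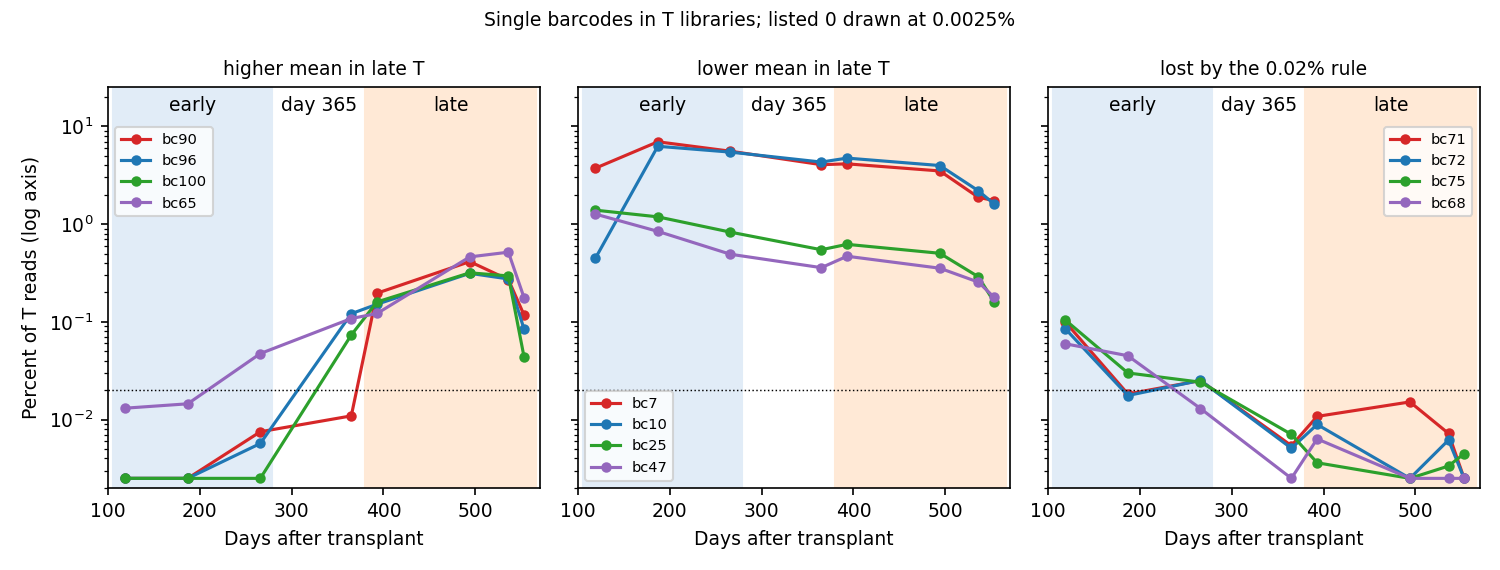
Percent of T reads (log axis) by days after transplant for 4 barcodes with a higher mean in late T, 4 with a lower mean in late T and 4 that dropped below 0.02% in all late libraries (dotted line at 0.02%). Blue shading marks early and orange shading late libraries, and a listed 0 is drawn at 0.0025%; bc100 appears only from day 365 on.

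Group 4, 7 barcodes that together held no more than 0.133% of reads in any library outside T, had the largest difference of means among the 8 groups. It held 9.46%, 32.9%, 25.7% and 8.74% of reads in late T, against 0.0168%, 3.94% and 6.92% in early T. At day 365 it stood between them at 7.46%. The late mean was 19.2% ± 12.0 (SD, n = 4) and the early mean 3.63% ± 3.46 (n = 3), a ratio of 5.29, and the groups did not overlap. For 6 of its 7 members, too, all late libraries were above all early ones, where 14.1% of tested barcodes were. bc19 was the exception, at 0.570% in the library of day 553, below its 0.70% and 1.10% at days 187 and 266. Members were grouped by covariation over libraries that include these, so they do not count separately. Outside the groups, 20 of 136 tested barcodes had all late libraries above all early ones, those that entered the test through late T included. The log2 change of the summed group was 2.40 ± 1.46 (SE) and did not pass (edgeR adjusted p = 0.546). Between members, the log2 ratio of the late to the early mean ran from 2.24 to 2.84. A pair of members reached the top of a library: bc13 was the most abundant T barcode of day 494, at 5.65%, and bc15 that of day 536, at 4.09%.

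Group 1, which held 94.1% to 99.8% of reads in late Gr and 99.8% to 99.9% in late Mono, was uneven in T. The same was so in B, where group 1 held 3.44%, 5.29% and 41.4% at days 393, 494 and 553. In early B it held 0.171%, 0.415% and 10.6%. In T, group 1 held 2.92%, 3.98%, 13.1% and 48.9% of reads in late libraries and 0.413%, 0.616% and 5.40% in early ones, so the groups overlapped. At day 365 it held 14.4%, more than in 3 of the 4 late T libraries. The means were 17.2% ± 21.6 in late T (SD, n = 4) and 2.14% ± 2.82 in early T (n = 3; difference 15.1 percentage points, exact permutation p = 0.257, adjusted p = 0.429 over 5 library measures). The ratio of these means was 8.04, against 5.29 for group 4. None of the 6 members of group 1 was called or separated late from early T. bc2, the most abundant T barcode of day 553, was at 10.3% on that day and at 0.596% to 2.29% on the other late days. At day 365, when Gr and Mono were 91.7% group 1 each, bc11, a barcode outside group 1 named after its values were seen (7.95% in Gr, 6.47% in Mono), was also at its highest in T, 1.03%. In B, bc11 was at 0.595% on that day and higher at day 266, at 1.09%. What part cells of other lineages had in these T libraries was not tested.

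Groups 2, 3, 5, 6, 7 and 8 had lower mean shares in late than in early T. Group 2 held 16.99%, 14.5%, 8.19% and 6.73% in late T and 10.9%, 25.9% and 22.6% in early T, overlapping at day 119. Its late mean was 11.6% ± 4.92 (SD, n = 4) and its early mean 19.8% ± 7.87 (n = 3). bc10 differed from the other members at day 119, at 0.446%, against 3.16% to 3.73% for bc7, bc8 and bc9 on that day. By day 187 all 4 lay between 6.26% and 6.96%.

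Among these, groups 6 and 8 had the largest ratios. Group 6 held 2.62%, 1.99%, 1.28% and 0.588% in late T and 5.61%, 3.83% and 2.88% in early T, with no overlap, and its early mean was 2.54 times its late one (summed group, edgeR unadjusted p = 0.0441, adjusted p = 0.509). Group 8 held 2.14%, 1.95%, 1.30% and 0.833% in late T and 5.98%, 3.14% and 2.38% in early T, also with no overlap, at 2.47 times (unadjusted p = 0.0338, adjusted p = 0.487). Groups 3 and 7 did not overlap either, at 1.80 and 1.59 times, and group 5 did, at 1.78 times. Of single members, 0 of 4 in group 2, 4 of 11 in group 3, 1 of 9 in group 5, 3 of 4 in group 6, 1 of 3 in group 7 and 4 of 5 in group 8 had all late libraries below all early ones, against 9.73% of tested barcodes. That share includes these members, which share a course by the way groups were formed and do not count separately. Outside the groups, it was so for 5 of 136 tested barcodes, those that entered the test through early T included. In group 6, bc25, named after its values were seen, held 0.621%, 0.503%, 0.289% and 0.160% in late T and 1.39%, 1.19% and 0.828% in early T (log2 change −1.53 ± 0.55, SE, edgeR adjusted p = 0.363).

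Because shares sum to a fixed total, the reads of group 1 lower every other share in the library of day 553. As a percent of the reads outside group 1, group 4 held 9.74%, 34.3%, 29.6% and 17.1% in late T and 0.0168%, 3.97% and 7.31% in early T. Group 6 held 2.70%, 2.08%, 1.47% and 1.15% in late T and 5.63%, 3.86% and 3.05% in early T on that scale, and group 8 held 2.20%, 2.03%, 1.49% and 1.63%, against 6.01%, 3.16% and 2.51%. None of the 3 overlapped on this scale either. With group 1 reads left out, edgeR called 2 of 207 barcodes higher and 0 lower, with group 6 at adjusted p = 0.267 and group 8 at adjusted p = 0.267 when groups were summed.

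**Figure D3:**
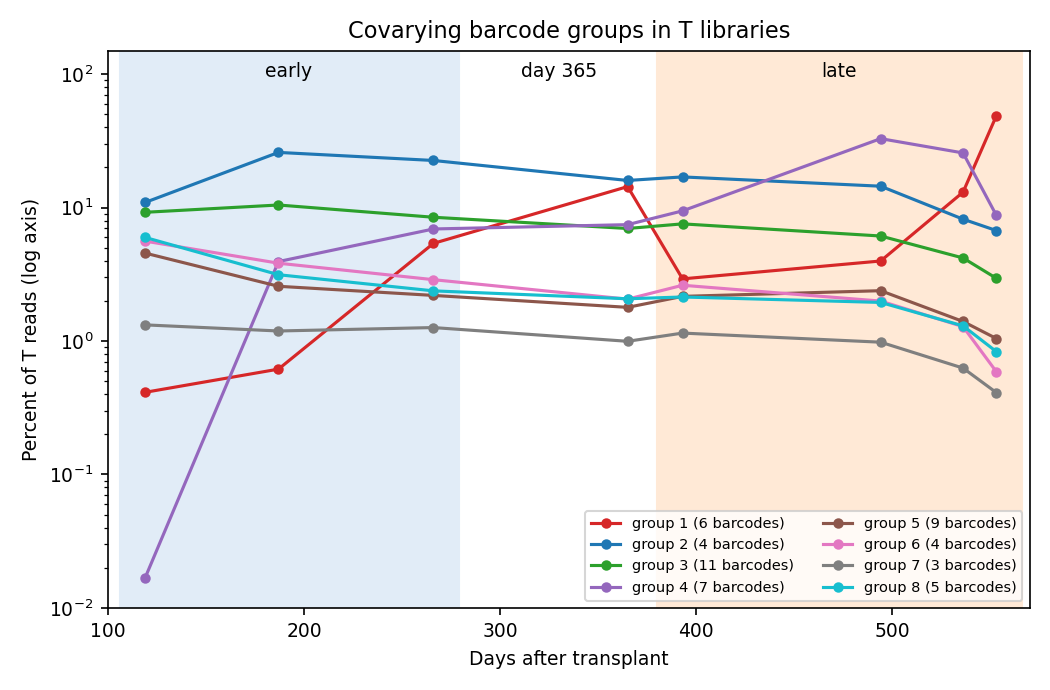
Percent of T reads (log axis) held by each of the 8 covarying groups by days after transplant, with early libraries on blue, late libraries on orange shading and day 365 between them. Group 4 reaches 32.9% at day 494 and group 1 reaches 48.9% at day 553, while groups 3, 6, 7 and 8 lie lower in every late than in every early library.

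Persistence was described by presence at 0.02% of reads. Of 1125 barcodes present in at least 1 of the 7 libraries, 75 were persistent, that is, present in all 4 late and all 3 early ones. Of the barcodes present in all 3 early libraries, 97 in number, 95 were present in at least 1 late library. The 75 took in every member of groups 1, 2, 3, 5, 6, 7 and 8, 42 barcodes, and 33 outside any group. All 75 were also present at day 365, a library the definition did not use. They held 41.0%, 36.4%, 33.3% and 63.8% of reads in late T and 43.8%, 54.4% and 50.5% in early T. The 69 outside group 1 held 38.0%, 32.4%, 20.2% and 14.9% of all reads in late T and 43.4%, 53.7% and 45.1% in early T. Group 1 reads stay in these totals and made up 48.9% at day 553, which lowers the share of the 69 there. The 33 ungrouped ones held 2.33% to 5.41% in late T and 5.38% to 6.59% in early T. Of the 75, 62 had the lower mean in late T and 13 the higher, 6 of them in group 1.

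Lost barcodes, present in at least 2 early libraries and in no late one, numbered 23, of 251 present in at least 2 early libraries. Only 2 of the 23 were listed at 0 in all 4 late T libraries, the others being listed below 0.02%. Together they held 0.242%, 0.0770%, 0.150% and 0.146% of reads in late T and 0.707%, 0.809% and 0.431% in early T, values that the definition itself separates. The drop of single lost barcodes below 0.02% follows from the definition as well. At day 365 5 of the 23 were present. bc75 held 0.00361%, 0, 0.00334% and 0.00447% in late T and 0.104%, 0.02997% and 0.0241% in early T. bc71 and bc72 had the same course, with late means of 0.00828% and 0.00377%, and early means of 0.0476% and 0.0425%. In Gr of day 119 these 3 held 0.670% to 0.786%. bc177 shows how near the threshold others lay, at 0.0176% to 0.0192% in late T, against 0.0367%, 0.0763% and 0.0109% in early T. The count of 23 rested on single libraries: leaving out day 119 gave 11, day 187 gave 4, day 266 gave 12 and day 393 gave 35.

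Gained barcodes, present in no early library and in at least 2 late ones, numbered 129, of 471 present in at least 2 late libraries. A gain needs absence from 3 early libraries and a loss absence from 4 late ones, so the counts of gained and lost barcodes are not comparable. They held 3.51%, 4.52%, 4.16% and 2.59% of reads in late T and 0.749%, 0.7504% and 1.02% in early T, values that the definition itself separates. At day 365 47 of them were present and 108 listed. All 3 early T libraries listed 14 of the 129 at 0, and the others were listed below 0.02% in at least 1 of them. Late libraries listed 109 of them in B and 0 in Gr or Mono, and early libraries listed 111 in B, 92 in Gr and 80 in Mono. Those late Gr and Mono libraries list only 12 to 22 barcodes each in all, so the 0 is not particular to gained barcodes. The count was 226 with group 1 reads left out, 224 without day 266 and 84 without day 536.

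**Figure D4:**
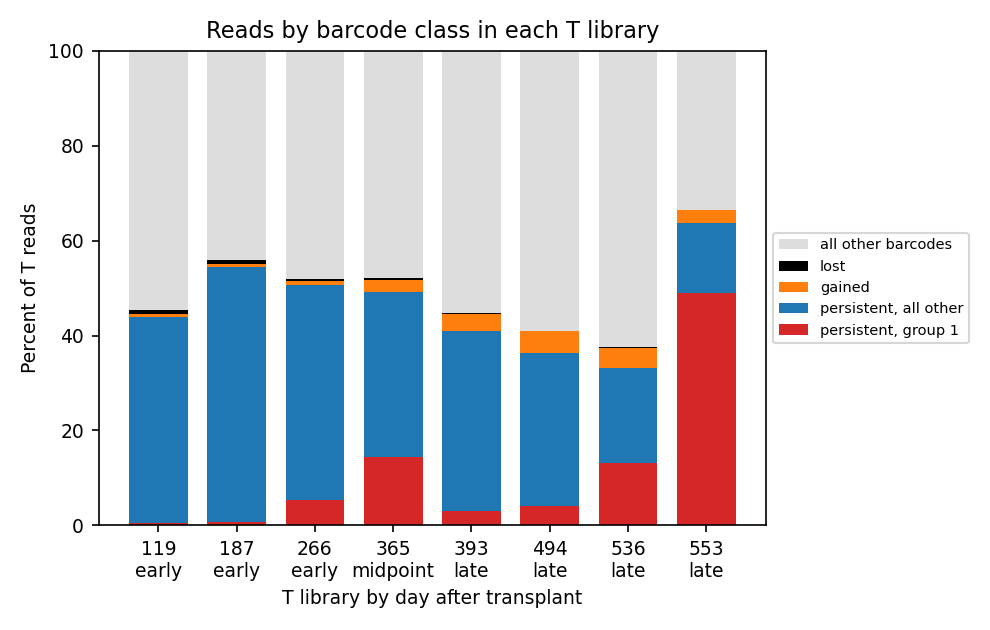
Percent of T reads in persistent barcodes of group 1, all other persistent barcodes, gained barcodes, lost barcodes and all other barcodes, as stacked bars for each T library from day 119 to day 553. Persistent barcodes outside group 1 held 43.4% to 53.7% of reads in early T, 34.9% at day 365 and 14.9% to 38.0% in late T.

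Whether persistence held in other lineages was examined with the same 75 barcodes, which were chosen in T alone. Late libraries listed 46 of them in B, 10 in Gr and 9 in Mono, group 1 included, and early libraries listed 74 in B, 71 in Gr and 72 in Mono. By library, Mono listed 7 and 9 at days 494 and 553, against 68, 62 and 59 at days 119, 187 and 266, and 52 at day 365. Gr listed 10 and 10, against 66, 62 and 61, and 30 at day 365. In B 38, 30 and 34 were listed at days 393, 494 and 553, against 71, 58 and 54, and 64 at day 365. Counted over all barcodes, late Mono lists 12 and 13, against 808, 3077 and 3670 in early Mono. Late Gr lists 22 and 18, against 2013, 4729 and 4871 in early Gr. The low late counts in Mono and Gr are therefore not particular to these 75. Late B lists 11624, 3296 and 7935 barcodes in all, against 8349, 13465 and 8981 in early B, where the totals overlap. Outside group 1, the Mono library of day 494 has 1720 reads and the T library of that day 735539, so depth outside group 1 differs with the lineage and its part in the counts was not tested. As a percent of all reads, the 69 persistent barcodes outside group 1 held 0.00485% and 0.0103% in late Mono. In early Mono they held 91.0%, 58.7% and 25.7%. Group 1 reads stay in these totals and made up 99.9% and 99.8% of the late ones.

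**Figure D5:**
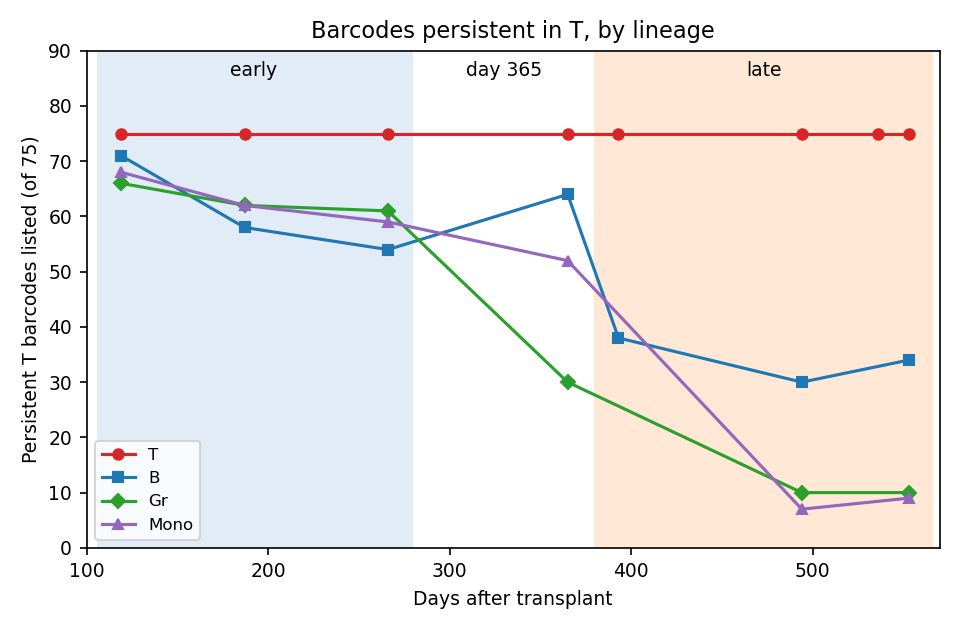
Number of the 75 barcodes persistent in T that were listed in each T, B, Gr and Mono library from day 119 to day 553. T stays at 75, by definition in the early and late libraries and as an observation at day 365. Mono and Gr list 7 to 10 in late libraries and 59 to 68 in early ones, and B lists 30 to 38 and 54 to 71.

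The difference between the lineages was tested as an interaction of lineage and phase with day as a block. Over the 5 days shared with Mono (494 and 553, against 119, 187 and 266), edgeR called 63 of 154 barcodes (40.9%) as higher in the late to early change of T than in that of Mono and 0 as lower. Within Mono alone, 49 of 56 tested barcodes were called lower in late libraries (87.5%). Late Mono left 1720 and 5710 reads outside group 1, and bc11 alone held 0.0525% and 0.130% of all reads there. Outside group 1 and bc11, barcodes therefore reached the 0.05% of the filter through early Mono alone, where they are high. The 87.5% follows largely from that filter. Only 41 of the 63 reached 0.05% in at least 2 Mono libraries. The other 22 entered the test through T, and their change in Mono runs from near the detection limit to a listed 0. Fitted over the 56 barcodes that passed within Mono, a setting added after seeing the data, edgeR called 42 higher (75%) and 0 lower, 41 of them in both fits. That set has the same limit, since apart from group 1 and bc11 it entered through early Mono. Of the 63, 60 were listed at 0 in both late Mono libraries, 47 were persistent in T and 34 belonged to a group. In both fits all members of groups 2, 3, 5, 6 and 7 were called and 0 of 6 in group 1. No member of groups 4 and 8 passed the filter within Mono, so their calls are not read.

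Single barcodes show the contrast. bc8 held 3.27% and 1.76% of T reads at days 494 and 553, against 3.60%, 6.45% and 5.80% in early T. In Mono it was listed at 0 on both late days, which allows up to 0.00471% and 0.00264%, against 7.98%, 7.75% and 3.96% in early Mono (edgeR adjusted p = 0.0172 for the difference of the changes). bc24 held 0.983% and 0.400% in late T and 0.400%, 1.08% and 1.18% in early T, and in Mono 0 and 0, against 1.41%, 1.22% and 0.288% (adjusted p = 0.0172, edgeR). bc22 was at 0.300% and 0.141% in late T and at 0.520%, 0.269% and 0.445% in early T, and in Mono at 0 and 0, against 1.92%, 1.43% and 1.35% (adjusted p = 0.0172, edgeR). Group 1 held 99.9% and 99.8% of the late Mono reads and left 1720 and 5710 reads for all other barcodes, so the test is one of shares of barcoded DNA. The count was 35 without day 187 and 34 without day 494.

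Against B over 6 shared days, edgeR called 0 of 271 barcodes in either direction. At an unadjusted p under 0.05 there were 17, of which 16 had the higher change in T, and without the day block 10 were called. With the filter taken within B, a setting added after seeing the data, 1 of 122 was called higher in T, bc16 (edgeR adjusted p = 0.0445; named after its values were seen). These fits do not show that T and B changed alike.

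None of 5 measures of diversity and dominance passed after adjustment. The effective number of barcodes (from Shannon entropy) was 780, 153, 393 and 129 in late T and 1375, 348 and 502 in early T, and 455 at day 365. The late to early difference was −1.16 on the log2 scale (exact permutation p = 0.229, adjusted p = 0.429, n = 4 and 3). Without group 1 it was −0.53 (exact permutation p = 0.571, adjusted p = 0.571), and there day 553 had 645 in place of 129. Present barcodes numbered 517, 573, 439 and 275 in late T and 229, 423 and 425 in early T (log2 difference 0.33, exact permutation p = 0.429, adjusted p = 0.536). As shares of the reads outside group 1, late libraries had 538, 607, 525 and 749 present barcodes and early ones 225, 419 and 448, with no overlap (log2 difference 0.78, exact permutation p = 0.0286, adjusted p = 0.143). The 10 most abundant barcodes of a library held 25.4%, 44.1%, 32.7% and 55.8% in late T and 20.5%, 33.5% and 29.4% in early T (difference 11.7 percentage points, exact permutation p = 0.257, adjusted p = 0.429). With 35 ways to split 7 libraries the smallest two-sided p is 0.0286. It is 0.1 or 0.0667 with a library left out, so no such setting could pass.

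Similarity between T libraries was described over barcodes and not tested, since pairs share libraries. Pearson's r of square-rooted read shares averaged 0.737 over the 6 pairs of late libraries (0.629 to 0.835) and 0.603 over the 12 pairs of a late and an early library (0.375 to 0.779), and 0.622 over the 3 early pairs. On plain shares the order differed, at 0.613 for late pairs, 0.544 for late with early and 0.863 for early pairs. Day 365 was closest to day 393 at 0.797, with day 266 at 0.790, day 536 at 0.789 and day 494 at 0.776. With group 1 left out, late pairs had 61.1% of reads in common on average, late and early pairs 46.4%, and early pairs 50.4%. The library of day 119 stood apart: 24.3% of its reads were in barcodes listed in no other of the 8 libraries, against 0.391% to 7.57% in late libraries and 8.37% and 7.55% at days 187 and 266. Conversely, 289 barcodes were listed in all 8 libraries and held 51.6% to 72.8% of reads in late T and 47.9% to 62.4% in early T.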

How the data were processed

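The authors deposited 1 table of whole-number read counts, 44423 sequences by 38 libraries, which was read as raw counts from its values. The labels' protocols give barcode PCR from 200 ng of DNA over 28 cycles; the sources used here do not say how reads became counts. Each row was taken as 1 barcode, none were merged, and sequences are printed up to the adapter. Libraries were grouped by the cell type and day in the labels. Counts were tested with edgeR 4.0.16 (quasi-likelihood, column sums as library sizes, at least 0.05% in 2 libraries), and library measures with two-sided exact permutation tests in SciPy 1.17.1 on the absolute difference of means, adjusted by Benjamini-Hochberg. Standard errors were derived from edgeR's F (absolute log2 change divided by its root). Alternatives included TMM factors, DESeq2 1.42.0 (with poscounts size factors from the tested barcodes), other filters and thresholds, and each library left out. Groups joined barcodes reaching 1% of reads with r of at least 0.95 for every pair (log2 of percent + 0.01, complete linkage). The members, classes and groups were chosen with earlier results of these data known. Barcodes were named if called in late against early T (up to 10 a direction), among the 6 highest in late T, in early T or in a class, or among the 3 largest interaction calls reaching 0.5% in T. Any other barcode was named after its values were seen. The code was tested on simulated data. The labels name no batch.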

Additional observations from a re-analysis of the deposited data

Results flagged for a closer look

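Among 41 measures checked over the 4 late T libraries for a library far from the others, 1 was marked, where chance marks about 1 in 20. It was bc3, at 9.54% of reads at day 553, against 0.491% to 2.01% on the other late days. bc3 belongs to group 1, whose 6 members all had their highest late share on that day, so the mark is not particular to bc3. The late to early change differed between T and Mono by edgeR for 8 named barcodes. The fitted log2 difference (T minus Mono) was 12.8 for bc7, 19.3 for bc8, 12.9 for bc9, 9.97 for bc10, 16.6 for bc12, 15.5 for bc17, 17.4 for bc22 and 17.1 for bc24, with adjusted p of 0.0172 to 0.0483. Late Mono libraries hold zeros for most of them, so these sizes depend on how a 0 is treated and are not fold changes. In the T library of day 32, which entered no comparison, 0.210% of reads belonged to 1 gained barcode, bc248, above the 0.00582% that a listed 0 allows there.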

How the results depend on the processing

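The count of barcodes higher in late T was 1 and became 12 by DESeq2, 2 with the filter at 0.01%, 18 with no filter, 4 with each 0 at 100 reads, 2 without group 1 reads (2 also with the groups summed, a setting added after seeing the data), 0 with day 365 counted as early and 0 to 10 when 1 library was left out. The count lower was 0 and became 26 by DESeq2, and 0 to 0 without single libraries. The T and B difference, 0, became 10 without the day block and ranged from 0 to 0 without single days; the T and Mono difference, 63, ranged from 34 to 71. With the filter taken within the other lineage, added after seeing the data, they became 1 of 122 and 42 of 56. Persistent barcodes, 75, became 40 with groups summed, 296 for any listed count and 33 at 0.1%, and 75 to 109 without single libraries. Lost barcodes, 23, became 667 for any listed count, 11 at 0.05% and 3 at 0.1%, and 4 to 35. Gained barcodes, 129, became 226 without group 1 reads, 778 for any listed count, 42 at 0.05% and 17 at 0.1%, and 84 to 224. Counted over any listed barcode, the log2 difference of barcode numbers reversed to −0.52, and without day 119 that of the effective number without group 1 reversed to 0.040. The causes were not tested. Leaving out single libraries gave −1.65 to −0.58 for the log2 effective number, 0.04 to 0.55 for present barcodes, 6.31 to 16.4 points for the 10 most abundant, 4.52 to 19.8 points for group 1, −0.96 to 0.040 for the effective number without group 1, and r of 0.541 to 0.673 for similarity. After adjustment none of the 5 library measures passed with all 7 libraries under any setting run, and none could with a library left out. Among single barcodes, the log2 change of bc10 turned to 0.084 without day 187 (−0.91 to 0.084 over single libraries left out), and that of bc24 to 0.061 with TMM factors and 0.046 without day 266 (−0.57 to 0.046). Adding near-identical sequences together changed nothing, since no pair existed. No paired analysis was possible because late and early T are different days and no label ties a late library to an early one; the day block applies only between lineages.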
